A study of Mus musculus with 2 samples.

Results

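The 9 genes described here encode enzymes of the tricarboxylic acid cycle: Cs, Idh3a, Idh3b, Idh3g, Ogdh, Dlst, Sucla2, Fh1 and Mdh2. They were taken by symbol, from a list drawn up with earlier results of these data known, out of the 16910 annotated nuclear genes with at least 1 read. Their reads fell on 181 of the 125539 transcript models of replicate 1 and on 127 of the 65191 models of replicate 2. RNA came from adrenal glands of female B6CASTF1/J mice aged 2 months, a first-generation cross between the inbred strains C57BL/6J and CAST/EiJ, and was sequenced as long molecules. The 2 libraries form a single group, so the only comparison the design allows is between the replicates. The biosample labels number different animals, whereas both library labels carry the same animal number and a shared donor identifier. The spread between the libraries may therefore be technical. An RNA input is given for replicate 1 only.

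The cycle runs in the mitochondrial matrix, where it oxidises acetyl groups and hands electrons to the respiratory chain. Citrate synthase (Cs) joins an acetyl group to oxaloacetate, and malate dehydrogenase (Mdh2) regenerates oxaloacetate at the end. NAD-dependent isocitrate dehydrogenase is built from a catalytic subunit, Idh3a, and the subunits Idh3b and Idh3g, the latter regulatory. Ogdh and Dlst are the first and second components of the oxoglutarate dehydrogenase complex. Sucla2 is the ADP-forming beta subunit of succinate-CoA ligase, and Fh1 is fumarate hydratase. In the adrenal cortex the mitochondria also carry out steps of steroid synthesis.

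The sequences below are shown because the Idh3g finding rests on which bases lie between 2 exons. They are on the minus strand of chromosome X in mm10, written 5′ to 3′ as in the transcripts of the GENCODE M21 annotation. The capitals mark the 12-base exon of the annotated transcript Idh3g-201 in the first line, and 4 bases taken from the intron in the second. No base is added in the third.
Idh3g, annotated junction with the short exon: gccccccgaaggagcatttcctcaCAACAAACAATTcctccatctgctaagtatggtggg
Idh3g, junction with the downstream donor: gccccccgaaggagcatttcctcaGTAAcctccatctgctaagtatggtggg
Idh3g, direct junction: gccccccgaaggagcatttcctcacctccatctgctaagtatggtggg
The short exon lies at chrX:73782298-73782309, and its flanks at chrX:73782282-73782325 are shown because both end in the usual intron borders.
Idh3g, short exon in its introns: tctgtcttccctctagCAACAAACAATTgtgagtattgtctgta

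No transcript model of Idh3g with reads held the 12-base exon in either library. In replicate 1, the models of 398 reads crossed the site and 0 of these reads were assigned to a model with the exon. That allows a share of up to 0.754%, taking 3 counts as the limit, and the exact interval reaches 0.923%. In replicate 2 it was 0 of 215 reads, which allows up to 1.40%, with an exact interval up to 1.70%. These limits cover counting error only, and apply to the assignment of reads to models. The gene (ENSMUSG00000002010.17, chromosome X, 73778963 to 73786897, minus strand) was described in both libraries mostly by models outside the annotation.

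The downstream donor lengthens the upstream exon from 42 to 46 bases. It was in the models assigned to 345 of 398 reads of replicate 1 (86.7%, exact Clopper-Pearson 95% interval 82.9 to 89.9%). In replicate 2 it was in the models assigned to 177 of 215 reads (82.3%, 76.6 to 87.2%). The direct junction from the annotated donor made up 44 reads (11.1%, 8.15 to 14.6%) and 32 reads (14.9%, 10.4 to 20.4%). Its intron, which passes over the short exon, is itself annotated in M21. For both forms the intervals of the libraries overlapped. The site was left unspliced in 7 and 4 reads, and 2 reads in each library used another intron across it.

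Read from the annotated start codon, Idh3g-201 encodes 393 codons. The direct junction drops 12 bases and keeps the frame, giving 389 codons with the annotated stop. The 4 added bases shift the frame, and translation of that model would stop after 46 codons at position 73782092, 931 bases before the last junction. The bases from the junction to that stop, with the stop codon in capitals, are shown because they carry the shift.
Idh3g, downstream donor to stop: gtaacctccatctgcTAA
The deposited models give coordinates and not the letters of the reads. Whether the reads behind the 4-base form hold the 12 bases of the short exon was not tested.

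The same chain of introns was classed by the authors as new in catalog (known splice sites in a new combination) in replicate 1 and as new not in catalog (with an unannotated splice site) in replicate 2. No annotated transcript of Idh3g in M21 uses this donor, so the class in replicate 1 goes against the annotation. The plot of transcript classes shows Idh3g under different classes in the libraries for this reason. It was the main transcript of Idh3g, with 318 of 467 reads (68.1%) and 162 of 219 reads (74.0%), a difference that was not called (Fisher's exact test, adjusted p = 0.335). A new main transcript was found in 77 of the 2098 genes that had 50 or more reads in both libraries (3.67%). Only 3 and 2 reads of Idh3g matched an annotated transcript in full. An alternative first exon, that of Idh3g-205 (chromosome X, 73786528 to 73786622), was used by 18 of 397 reads (4.53%) and 12 of 215 reads (5.58%). In replicate 1 alone, 7.71% of Idh3g reads were of the genomic class, which in the authors' scheme matches no splice pattern. They belonged to an 81-base unspliced model at the 3′ end.

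**Figure D1:**
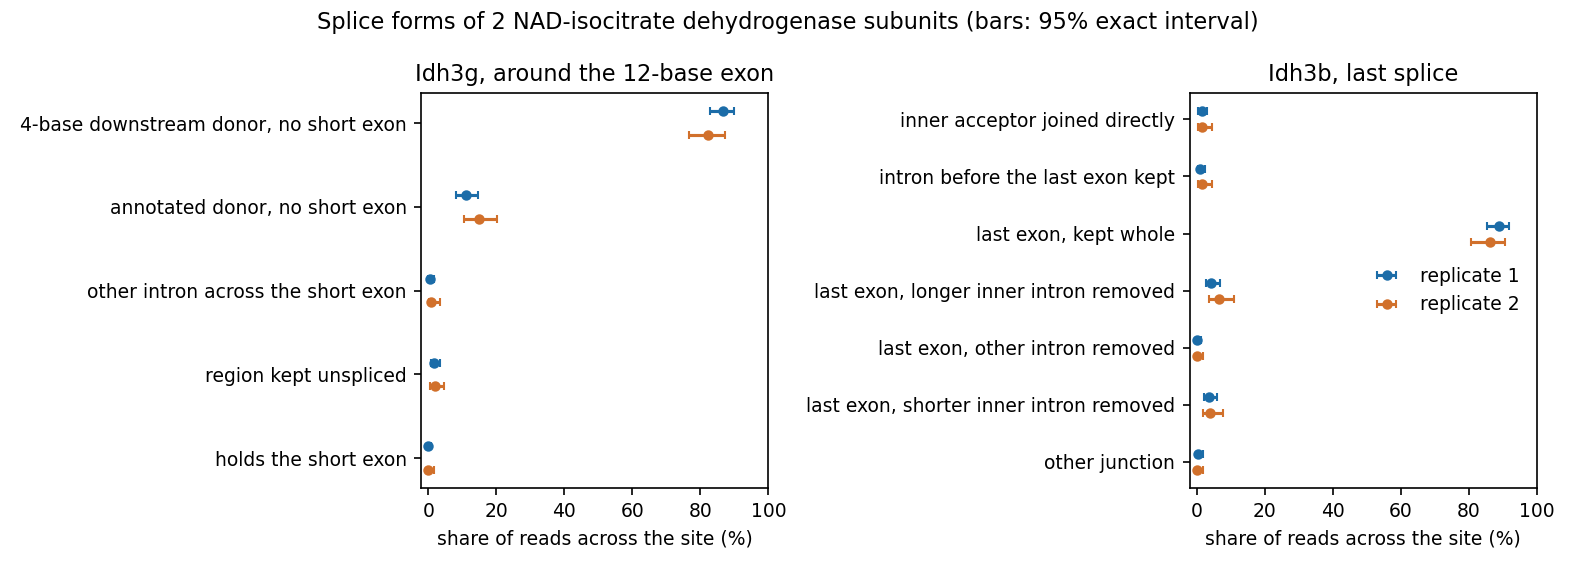
Share of reads, in percent, assigned to models with each splice form of Idh3g around the 12-base exon (left) and of Idh3b at its last splice (right), with points per library and exact 95% intervals. Models with the 4-base donor of Idh3g took 86.7% and 82.3% of reads, and models with the short exon 0 in both libraries.

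The short exon of Idh3g was one of many that these models lacked. Among annotated internal exons of coding transcripts crossed by at least 10 reads, 103 had at most 12 bases, and 102 of them were in no model to which a read was assigned. Of the 11 that no annotated transcript passes over, 11 were at 0. The exon of Idh3g is not among these 11, because an annotated intron passes over it. In exons of 13 to 20 bases the median share of reads whose model holds the exon was 0% over 109 exons, but 92.4% over the 27 that no annotated transcript skips. At 21 to 30 bases it was 98.3% over 514 exons, and at 31 to 50 bases 100% over 2964 exons. The steps by which reads were aligned and corrected were the authors', and their part in the absence of very short exons was not tested.

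**Figure D2:**
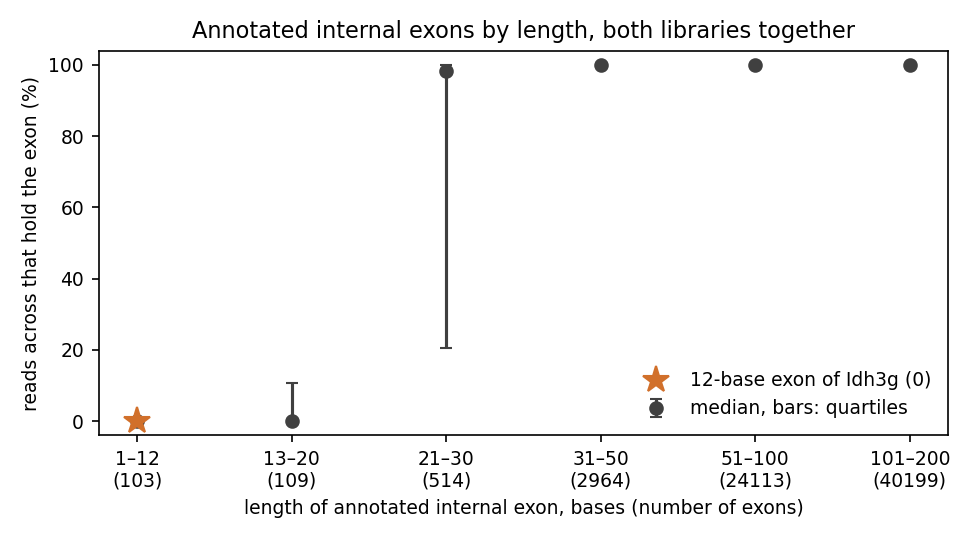
Median percent of crossing reads whose model holds an annotated internal exon, by exon length in bases, with quartiles as bars and both libraries summed. Exons of at most 12 bases stood at a median of 0, where the 12-base exon of Idh3g lies, and exons of 31 to 50 bases at 100.

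Idh3b varied at its last exon (gene ENSMUSG00000027406.12, chromosome 2, 130279309 to 130284547, minus strand). Of the reads reaching the last splice, 366 of 412 (88.8%, 85.4 to 91.7%) and 170 of 197 (86.3%, 80.7 to 90.8%) kept the last exon whole. An annotated intron of 118 bases inside that exon was removed in 18 reads (4.37%) and 13 reads (6.60%). An unannotated intron of 89 bases ending at the same acceptor was removed in 15 reads (3.64%) and 8 reads (4.06%). These introns lie past the stop codon, so both forms keep 384 codons, with the stop 84 or 113 bases before the last junction.

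A rarer Idh3b form joined the exon before directly to the inner acceptor, with 6 reads (1.46%, 0.536 to 3.14%) and 3 reads (1.52%, 0.315 to 4.39%). It skips the annotated coding end and would encode 380 codons with a stop at position 130279365. The junctions below show how the bases after the splice change, with those of the last exon in capitals.
Idh3b, junction to the start of the last exon: atcaaagctggcaagGTACGGACTCGAGAC
Idh3b, junction to the inner acceptor: atcaaagctggcaagGTTCGAACCTCAGAT
Each of these Idh3b forms was seen in both libraries, and the intervals of the libraries overlapped. The main transcript, Idh3b-201, took 77.1% of the reads in each library.

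Idh3a (ENSMUSG00000032279.11, chromosome 9, 54586334 to 54604661, plus strand) had a rare form with an inner donor in the 63-base second exon. It leaves out 24 bases and keeps the frame, with 376 in place of 384 codons. It was used by 12 of 440 reads (2.73%, 1.42 to 4.72%) and 3 of 307 reads (0.977%, 0.202 to 2.83%). The exon is shown with the bases left out in capitals, at chr9:54589858-54589920.
Idh3a, the second exon: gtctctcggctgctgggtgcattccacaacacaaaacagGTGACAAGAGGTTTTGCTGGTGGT
The remaining Idh3a reads were mostly of Idh3a-205, at 89.8% and 92.9%.

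By level, the 3 isocitrate dehydrogenase subunits lay close together in replicate 1. Levels are given as CPM, the reads of a gene scaled to a common library total (that of annotated nuclear genes), and were not divided by length because 1 read stands for 1 molecule. Idh3a stood at 375 and 621 CPM (453 and 312 reads), Idh3b at 375 and 418 CPM (454 and 210 reads), and Idh3g at 386 and 436 CPM (467 and 219 reads). The main transcripts are 2580 bases long for Idh3a and 1616 for Idh3b. The ratio of Idh3b to Idh3g was 0.972 and 0.959 (0.966 ± 0.009, SD, n = 2). How close this ratio was between the libraries, and which gene was higher in replicate 1, depended on the genomic class. Without it, Idh3b stood at 394 and 428 CPM and Idh3g at 374 and 447 CPM, with Idh3b the higher in replicate 1 and the lower in replicate 2. The ratio of Idh3a to Idh3b was 0.998 in replicate 1 and 1.49 in replicate 2. All 3 genes were higher in replicate 2, and Idh3a by more than Idh3b and Idh3g.

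All 9 genes were among the more abundant of the 9942 genes that had 3 or more reads in both libraries. In order of mean CPM (± SD, n = 2), Mdh2 stood at 538 ± 176, Sucla2 at 536 ± 51.5, Idh3a at 498 ± 174, Cs at 452 ± 92.1, Idh3g at 411 ± 35.0, Idh3b at 397 ± 29.99, Fh1 at 358 ± 8.25, Ogdh at 317 ± 292 and Dlst at 265 ± 8.32. Their ranks ran from 228 for Mdh2 to 648 for Dlst. Of neighbours in this order, only Idh3b and Fh1 differed by more than the larger SD of the pair. That SD comes from 2 libraries that all the genes share, so it cannot show whether neighbours differed within a library. Idh3b was above Fh1 in both libraries. Fh1 was above Ogdh in replicate 1 (364 and 111 CPM) but below it in replicate 2 (352 and 523 CPM). Summed, the 9 genes made up 3243 and 4299 CPM, from 3922 and 2161 reads.

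Ogdh was the member that differed most between the libraries (ENSMUSG00000020456.17, chromosome 11, 6291633 to 6356642, plus strand). It had 134 reads (111 CPM) in replicate 1 and 263 reads (523 CPM) in replicate 2, although replicate 2 was the shallower library. The log2 ratio of replicate 2 over replicate 1 was 2.24 (SE 0.15 from counting, adjusted p = 2.51e-49, two-sided Fisher's exact test with Benjamini-Hochberg adjustment over 10170 genes). This test compares 2 libraries, not conditions. At an adjusted p under 0.05 and at least a 2-fold difference, 1 of the 9 genes was called, against a background of 9.55% of all genes tested. Of all genes, 5.96% were called higher in replicate 2 and 3.59% lower.

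Among the other members, adjusted p was under 0.05 with less than a 2-fold difference for Idh3a (log2 ratio 0.73, SE 0.11), Mdh2 (0.68, SE 0.10) and Cs (0.42, SE 0.11), all higher in replicate 2. With Ogdh these are 4 of 9 genes, against 17.9% of all genes in either direction and 9.34% in that direction. That background takes in every gene with at least 10 reads, whereas the members are among the more abundant genes. At 50 or more reads over both libraries, 11.7% of genes were called at 2-fold, against 9.55% in the main run. Mdh2, which lies on chromosome 5 (135778480 to 135790398, plus strand, ENSMUSG00000019179.10), had 501 and 333 reads, or 414 and 662 CPM. Cs, on chromosome 10 (128337734 to 128362479, plus strand, ENSMUSG00000005683.8), had 468 and 260 reads, or 387 and 517 CPM. The median log2 ratio of the 9 genes was 0.18, and that of all genes tested was -0.06.

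The remaining 5 genes did not pass the test, and their log2 ratios ran from -0.19 for Sucla2 to 0.18 for Idh3g. Sucla2 (ENSMUSG00000022110.13, chromosome 14, 73525319 to 73596142, plus strand) had 692 and 251 reads, or 572 and 499 CPM. Fh1 (ENSMUSG00000026526.14, chromosome 1, 175600374 to 175625635, minus strand) had 440 and 177 reads, or 364 and 352 CPM. Dlst (ENSMUSG00000004789.10, chromosome 12, 85110833 to 85134845, plus strand) had 313 and 136 reads, or 259 and 271 CPM. Within the oxoglutarate dehydrogenase complex, Ogdh over Dlst was thus 0.428 in replicate 1 and 1.93 in replicate 2.

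**Figure D3:**
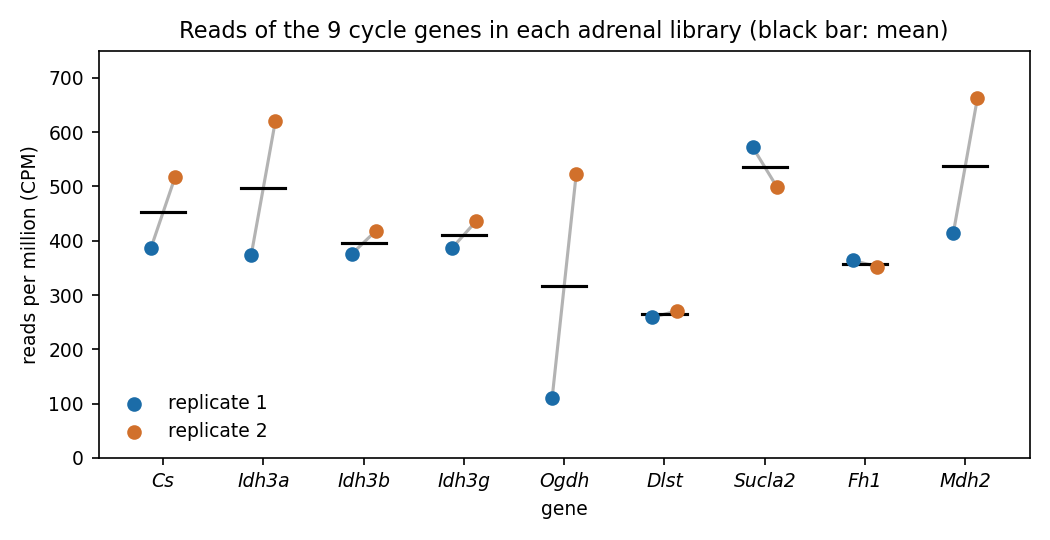
Level in CPM of each of the 9 genes (vertical axis) in replicate 1 and replicate 2 (points), with the mean as a black bar. Ogdh stood at 111 and 523 CPM, whereas Fh1 and Dlst differed by little between the libraries.

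The libraries also differed in how complete the Ogdh reads were. Incomplete splice matches, in which only a part of an annotated intron chain is present, made up 80.6% of Ogdh reads in replicate 1 and 24.3% in replicate 2. Over all genes these shares were 11.6% and 7.08%. The first 3′ splice site of Ogdh-201 was crossed by 27 of 134 reads (20.1%) and 198 of 263 reads (75.3%), and the last by 56.0% and 95.8%. Ogdh-201, of 4127 bases, is the longest main transcript among the annotated ones of the 9 genes. Its reads came to 15.7 and 298 CPM, a 19.0-fold difference, whereas reads of the last exon alone (1089 bases) were higher in replicate 1, at 44.6 against 15.9 CPM.

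The share of the main transcript was called different for 3 of the 9 genes, all higher in replicate 2, against a background of 16.4% of 2098 genes in either direction and 15.7% in that direction (Fisher's exact test, adjusted p under 0.05 and at least 10 percentage points). Ogdh-201 took 14.2% (19 of 134 reads) and 57.0% (150 of 263). Dlst-201 took 56.9% and 83.8%, and the main annotated transcript of Mdh2 took 76.2% and 97.3%. All 3 had more incomplete matches in replicate 1, with 33.9% against 9.56% for Dlst and 21.96% against 2.40% for Mdh2. When incomplete matches were left out of the denominator, neither Dlst nor Mdh2 was called, and Ogdh had too few reads to be tested. What made the reads of replicate 1 less complete was not tested.

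**Figure D4:**
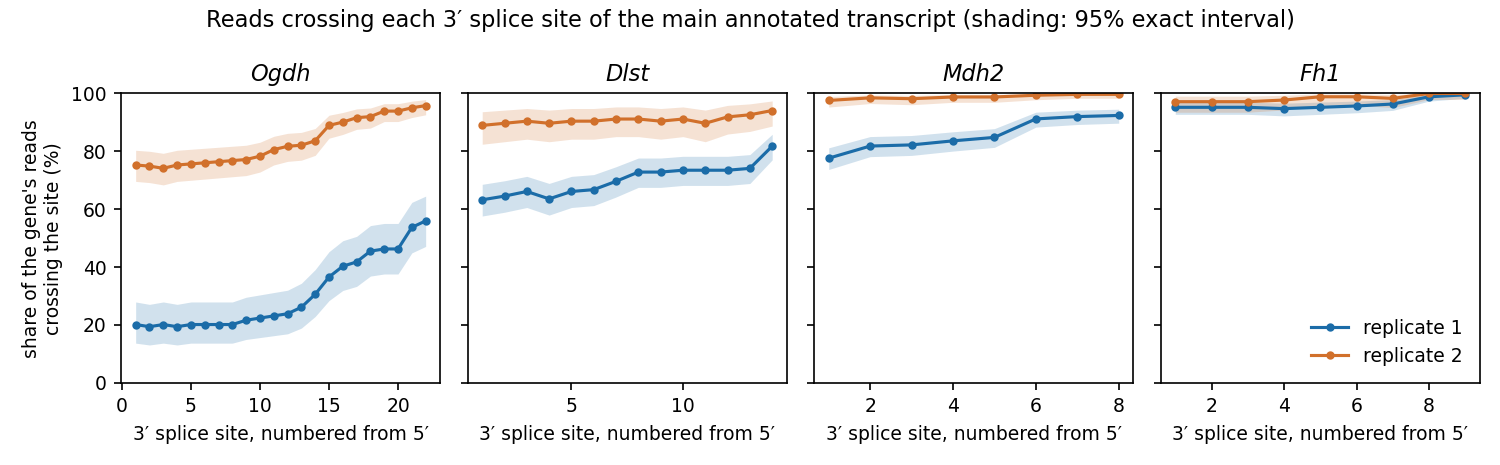
Percent of each gene's reads that cross each 3′ splice site of its main annotated transcript, numbered from the 5′ end, with exact 95% intervals shaded. Reads of Ogdh crossed the first site in 20.1% and 75.3% of cases, whereas for Fh1 both libraries stayed above 90% at every site.

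The main annotated transcript held 94.9% and 92.0% of Sucla2 reads and 93.6% and 96.6% of Fh1 reads, so nearly all molecules of these genes matched a single annotated transcript. Cs-201 held 82.9% and 91.2%, a difference with adjusted p = 0.0123 (Fisher's exact test) that stayed under 10 percentage points.

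**Figure D5:**
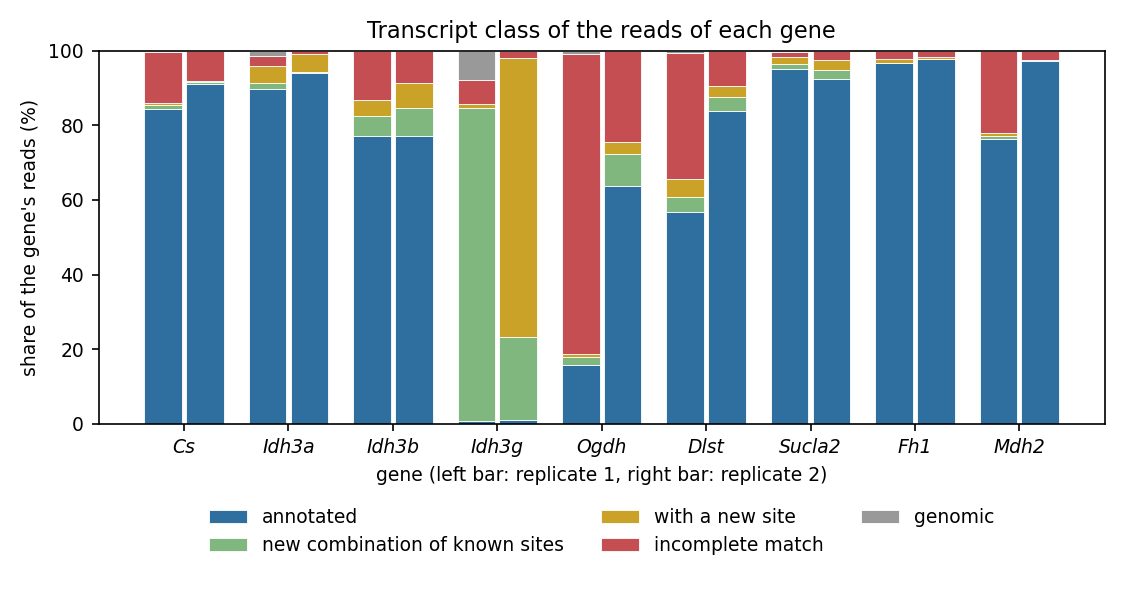
Share of each gene's reads, in percent, by transcript class, with replicate 1 as the left and replicate 2 as the right bar. Idh3g had under 1% annotated reads in both libraries, and incomplete matches made up 80.6% and 24.3% of Ogdh reads.

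Where Ogdh reads reached the 5′ part, they used the 103-base exon that comes as the fourth in Ogdh-201, in 26 of 27 reads and 195 of 198 reads. Its alternative, the fourth exon of Ogdh-202 with 91 bases, was used in 0 and 3 reads. Both are shown, at chr11:6316978-6317080 and chr11:6316765-6316855, because they are alternatives for the same place in the transcript. The residues they encode were not compared.
Ogdh, the fourth exon of Ogdh-201: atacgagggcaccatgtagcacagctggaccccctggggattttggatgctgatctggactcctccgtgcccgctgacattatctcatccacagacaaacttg
Ogdh, the fourth exon of Ogdh-202: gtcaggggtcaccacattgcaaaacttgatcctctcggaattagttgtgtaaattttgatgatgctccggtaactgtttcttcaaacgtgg
The first donor of Ogdh-201 was used by 85.2% of 27 reads (66.3 to 95.8%) and 81.8% of 198 reads (75.7 to 86.9%). That of Ogdh-204 was used by 0 reads and 17 reads (8.59%), and with 27 reads in replicate 1 a share of this size could not be told from 0.

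In Dlst, an inner donor leaves out the last 3 bases of an exon, in capitals below at chr12:85119315-85119344, and gives 453 in place of 454 codons.
Dlst, exon end: ctcctctgttcacactcaggaaaactgGTG
It was used by 12 of 218 reads (5.50%) and 3 of 124 reads (2.42%), with overlapping intervals. For a 353-base intron of Dlst (85130544 to 85130896), the share of reads that kept it differed between the libraries. It was kept in 24 of 256 reads of replicate 1 (9.38%, 6.10 to 13.6%) and in 0 of 126 reads of replicate 2 (up to 2.89%). No annotated or new spliced model kept this intron. An incomplete 2-exon chain that holds only the last intron of Dlst had 24 reads in replicate 1 and 2 in replicate 2. Whether the difference lies in splicing or in where incomplete reads begin was not tested. In Sucla2, a new junction that skips the second exon of its main transcript was carried by 4 and 3 reads.

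Over the 9 genes there were 226 chains of introns, of which 28 had at least 3 reads in both libraries. Of these 28, 8 were annotated, 9 were new splice forms and 11 were incomplete matches. Most of the rest was thin, since 144 chains were seen in 1 library only and 100 rested on 1 read.

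Of 36 other genes of the cycle and its supply, 35 were found in the annotation and tested, 3 were called higher in replicate 2 and 0 lower, against 5.96% and 3.59% of all genes, with a median log2 ratio of 0.08. Idh1, the cytosolic NADP-dependent isocitrate dehydrogenase, was lower in replicate 2 (1353 and 694 CPM, log2 ratio -0.96, Fisher's exact test with adjusted p = 2.82e-31) but short of 2-fold. The called genes were Pdk2 (log2 ratio 3.18), a kinase that inhibits pyruvate dehydrogenase, Slc25a1 (1.40), the mitochondrial citrate carrier, and Dlat (1.21), a pyruvate dehydrogenase subunit. The most abundant was Acly, which cleaves citrate in the cytosol, at 4390 and 5650 CPM, followed by Sdha, a succinate dehydrogenase subunit, at 1801 and 1462 CPM. Ogdhl, a paralog of Ogdh, had 15 and 3 reads.

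Total depth was 1277310 and 520388 reads, of which 1209457 and 502655 fell on annotated nuclear genes. The defining markers of cortex and medulla were present in both libraries. Summed over 6 cortex markers the level was 63522 and 82956 CPM, and over 5 medulla markers 11580 and 6677 CPM. These sums hide markers that differ: Cyp21a1 stood at 14022 and 28073 CPM but Cyp11a1 at 20228 and 19861. In the medulla list Chga, Chgb and Pnmt were lower in replicate 2, whereas Th stood at 1307 and 1371 CPM and Dbh at 116 and 177. Adipocyte markers (8 genes, Ucp1 and Cidea of brown fat among them) summed to 8749 and 9510 CPM, and markers of endothelium, macrophages and fibroblasts to between 348 and 742 CPM. The adipocyte sum also hides markers that differ: Ucp1 stood at 429 and 768 CPM, Cidea at 417 and 593 and Lpl at 498 and 901. Of the 8 genes, only Cfd (2480 and 1910 CPM) and Adipoq (232 and 199) were lower in replicate 2. In bulk tissue, fewer cells of a type and less RNA per cell cannot be told apart, and the part of these differences in the levels of the cycle genes was not tested.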

How the data were processed

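Per the labels, long-read RNA-seq libraries were made from adrenal gland tissue. The authors deposited, per library, raw counts of reads for each transcript model, with exon coordinates on mm10. TALON is named as the source of new models, per the deposited coordinates, and the classes are the authors'. The aligner, platform, tool versions and use of strand in counting were not given in the sources used here. Fh1 and Idh3b overlap genes on the opposite strand (Kmo and Nop56), so their reads could be shared.

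Counts were summed per gene over all classes and scaled as CPM. Libraries were compared by two-sided Fisher's exact tests with Benjamini-Hochberg adjustment (scipy 1.17.1, statsmodels 0.14.6) on genes with at least 10 reads in all. With 1 library a side, no count model with replicates could be fitted. Main transcript shares were compared where both libraries had 50 or more reads of the gene. Log2 ratios had 0.5 reads added. Splice shares have exact Clopper-Pearson 95% intervals. The Fisher test planned between libraries for splice choices is not reported, since it would be adjusted over the chosen genes alone. New models were matched by intron coordinates. Scaling alternatives used edgeR 4.0.16 and DESeq2 1.42.0. Both tests were checked on simulated data. All 9 genes are named, with models of at least 3 reads in both libraries, and the called and the highest genes of the pathway list. The genes and lists were chosen with earlier results of these data known.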

Additional observations from a re-analysis of the deposited data

How the results depend on the processing

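Of 171 values recomputed under an alternative other than leaving out a library, 159 kept their side of the threshold or moved little (by less than 1 SD for levels), and 0 reversed. A reversal could be given only to tested values with a call. A changed read minimum leaves the ratio or share of a gene as it was, so part of the 159 could hardly differ. The SD was wide for Ogdh, whose 216 CPM with annotated transcripts alone, against 317, counted among the 159. The number of members with a called difference in main transcript share fell from 3 to 0 with annotated and new spliced models alone as the denominator, and to 0 without incomplete splice matches. Over all genes the called share was then 0.742% and 5.46%, so 0 of the 8 members tested is near the background. Ogdh was then under the read minimum and not tested, Dlst had adjusted p = 0.851 and 0.376, and Mdh2 had adjusted p = 0.493 and 0.203 (Fisher's exact test). Both denominators leave out incomplete reads by construction. With annotated transcripts alone, Idh3g fell to 4.05 CPM from 411, and Ogdh had a log2 ratio of 4.14. The called genes numbered 971 (9.55% of those tested), and 648 of 5519 (11.7%) to 1132 of 8120 (13.9%) under the alternatives, with the lowest share at 886 of 16910 (5.24%). Ogdh was called in each of them. Without replicate 1 and without replicate 2, summed CPM was 4299 and 3243, and the share of the annotated donor in Idh3g 15.2% and 11.3%. With 2 libraries, leaving out 1 moves a mean by less than 1 SD whatever the values, so these say nothing about stability. The Ogdh mean of 317 CPM became 523 and 111. Annotated models alone gave no value for the Idh3g donor share, because no read of an annotated model used either of the 2 junctions. No paired analysis was possible because there is 1 group. Few reads limit the rare forms. For the 5′ part of Ogdh, 107 of 134 reads of replicate 1, the deeper library, did not reach it, and with the remaining 27 a share of 0 has an interval up to 12.8%.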
